A study of Mus musculus with 14 samples.

Results

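The transcripts followed here are those of 9 genes best known from the striatum, a structure at the base of the forebrain, measured in hippocampus dissected from mouse embryos. Tac1, Pdyn and Penk encode neuropeptide precursors, Adora2a and Drd2 encode receptors, Ppp1r1b and Rgs9 encode regulators of receptor signalling, and Isl1 and Six3 encode transcription factors. All 9 were found among the 17372 gene symbols that could be attached to an assembled locus, each with 1 locus per symbol, the one with the highest mean. The list was chosen by striatal function and with the normalized fragments of the Dp(16)1Yey/+ comparison known, so that comparison is described for these genes without a test. In its own analysis the paper names Adora2a, Tac1, Pdyn and Penk among the genes lower in Dp(16)1Yey/+, at a false discovery rate under 0.05.

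The study sequenced RNA of hippocampi from embryos of embryonic day 16 to 18 in a pair of mouse models of Down syndrome. The first, 189N3 (Tg(Dyrk1a)189N3Yah), carries an extra copy of the Dyrk1a gene on a bacterial artificial chromosome with its flanking sequence, and 3 libraries were compared with 3 of wild-type littermates. The second, Dp(16)1Yey/+ (Dp(16Lipi-Zfp295)1Yey), carries a duplication of the mouse chromosome 16 region syntenic to human chromosome 21, and 4 libraries were compared with 4 of wild-type littermates. C57BL6 is the wild-type strain named beside these lines, and the methods describe crosses of heterozygotes with it for neuronal cultures. No embryo was treated. Replicate numbers start at 0, following the labels. The methods list as many embryos per genotype as there are libraries in each group. Which embryos share a litter is not stated in the sources used here, and the p-values measure the spread between these libraries. None of the 9 genes lies in the duplicated region.

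The libraries held 20809135 to 29098454 fragments. Hippocampal markers were present in all 14, with Zbtb20, a factor of hippocampal pyramidal neurons, at 1789 to 7734 normalized fragments and Prox1, a factor of dentate granule cells, at 161 to 856. Dyrk1a read 3938 to 5877 normalized fragments in 189N3 and 2126 to 2977 in its littermates. In Dp(16)1Yey/+ replicate 1 the 83 genes of the duplicated region had a median log2 ratio to the littermate mean of 0.12, against 0.69, 0.58 and 0.40 in replicates 0, 2 and 3, so the library labelled Dp(16)1Yey/+ replicate 1 went against its label and values without it are given. The littermates of Dp(16)1Yey/+ fell into pairs. Replicates 0 and 1 differed by 1.64 times, and replicates 2 and 3 by 1.99 times, the squared difference that counting noise alone gives in the median locus, against 28.6 to 33.2 times between the pairs. Standard errors with each pair averaged are therefore given as well.

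Most neurons of the striatum are GABAergic projection neurons that receive glutamate from the cortex and dopamine from the midbrain. The neurons of the direct pathway carry the dopamine receptor D1 and make substance P and dynorphin, the products of Tac1 and Pdyn. Those of the indirect pathway carry the dopamine receptor D2 and an adenosine receptor and make enkephalin, the product of Penk. Both kinds are born in the lateral ganglionic eminence, where Isl1 marks the direct and Six3 the indirect lineage. Single members of the list are also made by some neurons of the hippocampus, such as Penk by interneurons and Pdyn by granule cells.

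The precursor genes are told apart by the peptides they encode. The runs below are coding sequence of GENCODE vM21 on GRCm38 (mm10), 5′ to 3′ on the coding strand, with the bases of the shared peptide core in capitals and 6 bases on either side. They are shown because Tac1 carries tachykinins, whereas Pdyn and Penk carry opioid cores. The Leu-enkephalin and Met-enkephalin cores differ in the last amino acid, and Penk holds both.
Tac1, substance P core, chr6:7556744-7556770, plus strand, exon 3: cagcagTTCTTTGGATTAATGggcaag
Tac1, neurokinin A core, chr6:7559110-7559136, plus strand, exon 6: gattccTTTGTTGGACTAATGggcaaa
Pdyn, first Leu-enkephalin core, chr2:129688232-129688258, minus strand, exon 4: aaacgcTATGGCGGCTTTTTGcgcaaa
Penk, first Met-enkephalin core, chr4:4134328-4134354, minus strand, exon 2: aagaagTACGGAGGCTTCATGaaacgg
Penk, Leu-enkephalin core, chr4:4133935-4133961, minus strand, exon 2: aagaggTATGGGGGCTTCCTGaagcgc
The Tac1 coding sequence of 390 bases held 1 substance P and 1 neurokinin A core. The Pdyn coding sequence of 744 bases held 3 Leu-enkephalin and 0 Met-enkephalin cores, and the Penk coding sequence of 804 bases held 6 Met-enkephalin cores and 1 Leu-enkephalin core.

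The genes lie on 8 chromosomes of mm10 (annotation GENCODE vM21). Tac1 spans chr6:7554879-7565834, Pdyn chr2:129686565-129699844, Penk chr4:4133531-4138819, Adora2a chr10:75316877-75334784 and Drd2 chr9:49340627-49408177. Ppp1r1b spans chr11:98348404-98357796, Rgs9 chr11:109225355-109298129, Isl1 chr13:116298281-116309689 and Six3 chr17:85613608-85629302. On the opposite strand Penk overlaps A830012C17Rik, Ppp1r1b overlaps 1700003D09Rik, and Six3 overlaps Six3os1 and Gm28528. Whether counting used strand is not stated, so reads of these 3 genes and of their antisense partners cannot be told apart.

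Because these neurons answer to dopamine and adenosine through cyclic AMP, promoters were searched for the half-site TGACG of the cAMP response element, on both strands, in the 250 bases before each start (RefSeq, GRCm38.p6). Promoters of 6 of the 9 genes were in the table. Tac1 and Isl1 held half-sites, each with 2, and Pdyn, Drd2, Rgs9 and Six3 held none. The share over all 32851 promoters was 17.8%. The windows are printed as a description of the genes with matches, with the half-site in capitals. RefSeq and GENCODE place the start of Tac1 apart, so its second window lies inside the GENCODE span given above.
Tac1, chr6:7554852-7554881, plus strand: tccctaaaattgCGTCAtttcgaacacaat
Tac1, chr6:7555006-7555035, plus strand: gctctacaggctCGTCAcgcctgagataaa
Isl1, chr13:116309722-116309751, minus strand: cgccTGACGtccccgcgcgctgCGTCAgac

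Levels between genes were compared per length, as fragments per kilobase of exon scaled to 1000000 fragments per library, in the 7 wild-type libraries of both lines. Rgs9 was highest, with a median of 3.04 (2.56 to 3.27). Ppp1r1b followed with 1.42 (1.11 to 3.97) and Penk with 1.38 (0.470 to 4.11), and these ranges overlapped almost wholly. Isl1 had a median of 0.388 (0.0456 to 3.44), Adora2a 0.327 (0.265 to 1.61), Tac1 0.283 (0.0133 to 2.83) and Pdyn 0.215 (0.0313 to 1.33). Drd2 had 0.113 (0.0287 to 1.37) and Six3 0.0581 (0.0470 to 0.367). The ranges of neighbours overlapped throughout this order. Rgs9 also has a transcript known from photoreceptors. The most abundant of its 6 assembled transcripts, uc007mby.2, held 61.9% of the locus, from 21.8% to 86.0% by library.

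The values below are normalized fragments, that is, fragments of a locus divided by 1 size factor per library, in the order of replicates. Tac1, the precursor of substance P and neurokinin A, read 13.5, 16.3 and 162 in 189N3 and 11.3, 78.5 and 24.2 in the littermates. The Dp(16)1Yey/+ libraries read 15.8, 107, 8.16 and 16.1, and the littermates 1.03, 3.96, 233 and 196. The low pair of littermates rests on 1 and 4 fragments (95% Poisson intervals 0.0261 to 5.74 and 1.08 to 10.1, counting error only) and the high pair on 216 and 194 fragments. Within 1 genotype and line the gene therefore ranged from near its detection limit to its highest value in the series, and all 4 Dp(16)1Yey/+ libraries lay between the pairs.

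Pdyn, the precursor of dynorphins, read 8.46, 13.1 and 48.8 in 189N3 and 14.7, 44.2 and 10.9 in the littermates. The 4 libraries of Dp(16)1Yey/+ read 23.7, 8.23, 7.14 and 7.04, and their littermates 2.06, 10.9, 88.5 and 93.0. Replicate 2 of 189N3, replicate 1 of its littermates and replicates 2 and 3 of the other littermates stood above the remaining libraries, and for Tac1 these 4 and Dp(16)1Yey/+ replicate 1 did.

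Penk, the precursor of enkephalins, read 33.8, 44.9 and 79.9 in 189N3 and 44.2, 80.3 and 56.8 in the littermates. In Dp(16)1Yey/+ it read 50.4, 32.9, 19.4 and 29.2, and in the littermates 17.5, 27.7, 145 and 163. The 4 highest libraries were those of Pdyn. The 4 Dp(16)1Yey/+ libraries were below the high pair of littermates, and 3 of them were above the low pair.

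Adora2a, the adenosine receptor of indirect-pathway neurons, read 21.2, 22.0 and 48.8 in 189N3 and 22.5, 24.4 and 20.54 in the littermates. Its values in Dp(16)1Yey/+ were 43.5, 27.0, 21.4 and 11.1, and in the littermates 18.5, 25.7, 89.6 and 119. Apart from 4 libraries, 189N3 replicate 2, Dp(16)1Yey/+ replicate 0 and the high littermate pair, no library exceeded 27.0.

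Drd2, the dopamine receptor of the same neurons, read 10.2, 9.79 and 29.1 in 189N3 and 1.73, 16.2 and 7.25 in the littermates. In Dp(16)1Yey/+ it read 18.8, 12.9, 8.16 and 14.1, and in the littermates 4.12, 2.969, 68.0 and 84.9. The Dp(16)1Yey/+ libraries all fell between the pairs, as for Tac1.

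Ppp1r1b encodes DARPP-32, a phosphatase inhibitor switched by dopamine. It read 247, 60.4 and 243 in 189N3 and 77.1, 98.4 and 138 in the littermates. Those in Dp(16)1Yey/+ were 248, 243, 28.6 and 173, and in the littermates 94.8, 81.1, 282 and 278. The high pair of littermates was again the highest, but 189N3 replicates 0 and 2 and Dp(16)1Yey/+ replicates 0 and 1 came close to it.

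Rgs9, which speeds the end of G protein signalling, read 562, 515 and 561 in 189N3 and 460.0, 432 and 412 in the littermates. The second model read 617, 389, 352 and 536, and in the littermates 457, 469, 454 and 507. It was the gene of the list in which the littermate pairs did not separate, and the one gene whose 189N3 and littermate values did not overlap.

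Isl1, a LIM-homeodomain factor, read 8.46, 22.8 and 157 in 189N3 and 12.99, 60.5 and 38.7 in the littermates. Values in Dp(16)1Yey/+ were 128, 427, 19.4 and 106, and in the littermates 4.12, 10.9, 329 and 331. Its highest library was Dp(16)1Yey/+ replicate 1, the one that went against its label.

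Six3, a homeodomain factor, read 0.846, 4.89 and 15.6 in 189N3 and 6.06, 7.22 and 8.46 in the littermates. In Dp(16)1Yey/+ it read 19.8, 29.4, 4.08 and 11.1, and in the littermates 7.21, 6.93, 28.1 and 48.5. The lowest value is 1 fragment, and this gene was too low in the 189N3 line for the test.

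**Figure D1:**
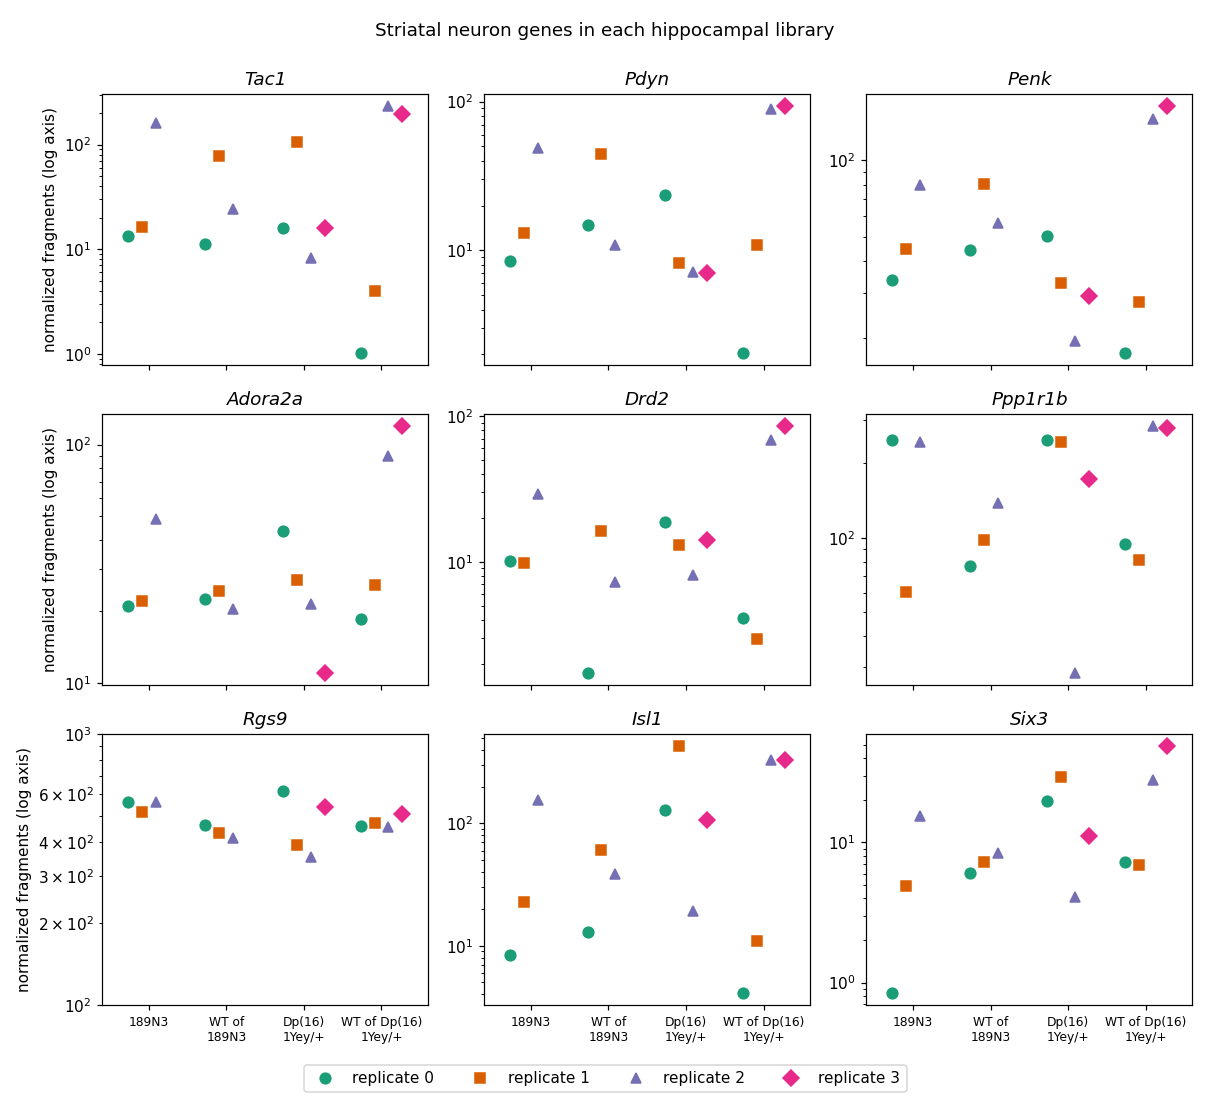
Normalized fragments (log axis) of each of the 9 genes in every library, by group, with 1 point per library and the marker giving the replicate number. Littermate replicates 2 and 3 of Dp(16)1Yey/+ were both among the 3 highest of the 14 libraries for 8 of the 9 genes, and Rgs9 varied least.

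The libraries that were high or low were largely shared between the genes. Littermate replicates 2 and 3 of Dp(16)1Yey/+ were the 2 highest of the 14 libraries for 6 of the 9 genes, against 2.95% of all 36045 loci whose mean over the 14 libraries reached 10. They exceeded replicates 0 and 1 for 8 of the 9, against 34.1% of all loci, and their mean was at least 2 times that of replicates 0 and 1 for the same 8 genes, against 4.67%. The ratio of the pair means was 86.1 for Tac1, 44.0 for Isl1, 21.6 for Drd2, 14.02 for Pdyn, 6.80 for Penk, 5.42 for Six3, 4.72 for Adora2a, 3.18 for Ppp1r1b and 1.04 for Rgs9. These shares are descriptions, since the genes were chosen with the values of these libraries known. In the other line, 189N3 replicate 2 was the highest of its group for 7 genes and littermate replicate 1 the highest of its group for 6. Dp(16)1Yey/+ replicate 2 was the lowest of its group for 7 genes.

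The question of the 189N3 comparison is whether an extra copy of Dyrk1a alone shifts these transcripts. Of the 9 genes, 8 averaged 10 or more normalized fragments over the 6 libraries and were tested with limma among 35899 loci. None of the 8 was called at a Benjamini-Hochberg adjusted p of 0.05, and 0% of all loci were called. At an unadjusted p under 0.05 limma gave 0 of the 8 genes, against 1.87% of all loci. At an adjusted p under 0.05 edgeR called 0 of the 8 and 0 of all loci, and DESeq2 called 0 of the 8 and 15 of all loci. The median log2 fold change of the 8 genes was 0.29, with 6 above and 2 below 0, against −0.04 over all loci, of which 56.2% were below 0. Without 189N3 replicate 2 the median of the same 8 genes was −0.32, with 3 above and 5 below 0, and without littermate replicate 0 it was 0.013, with 4 above and 4 below.

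Among the peptide genes, Tac1 averaged 63.9 ± 84.9 (SD, n = 3) in 189N3 and 38.0 ± 35.7 in littermates, a log2 fold change of 0.25 (95% interval −1.39 to 1.88). Pdyn had a log2 fold change of −0.12 (−1.36 to 1.13) and Penk −0.24 (−0.97 to 0.50). For the receptors the log2 fold change was 0.33 for Adora2a (−0.45 to 1.10) and 1.07 for Drd2 (−0.24 to 2.38). Drd2 averaged 16.3 ± 11.02 normalized fragments against 8.41 ± 7.33. Each of these groups overlapped, and the limma adjusted p was 1.00 for every gene. These intervals hold changes of more than 1 log2 unit for Tac1, Pdyn, Adora2a and Drd2, which were not detectable at this spread.

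Of the signalling regulators, Ppp1r1b had a log2 fold change of 0.60 (95% interval −0.34 to 1.53) and Rgs9 of 0.33 (−0.15 to 0.81). Rgs9 averaged 546 ± 27.0 normalized fragments (SD, n = 3) in 189N3 and 435 ± 24.1 in littermates. Its values did not overlap, as in 4.98% of all loci tested, 1.99% with 189N3 higher. The exact two-sided permutation test gave p = 0.10, the smallest that 3 against 3 libraries allow, and the limma adjusted p was 1.00. Leaving out each library in turn gave log2 fold changes of Rgs9 from 0.29 to 0.37. Isl1 had a log2 fold change of 0.02 (−1.60 to 1.64), which ranged from −1.11 to 0.92 with 1 library left out.

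The Dp(16)1Yey/+ comparison adds the other genes of the duplicated region to the extra Dyrk1a. For the 9 genes it is a description. The groups overlapped for every gene, whereas 2.45% of the 36024 loci tested did not overlap, and limma called 0% of all loci. On the log2 scale the group means differed by −1.09 for Pdyn (standard error 0.95), −1.02 for Adora2a (0.58), −0.89 for Penk (0.65), −0.42 for Drd2 (0.91), −0.32 for Six3 (0.68), −0.25 for Ppp1r1b (0.66), −0.18 for Tac1 (1.43) and −0.03 for Rgs9 (0.20). Isl1 differed by 1.04 (1.34). Without Dp(16)1Yey/+ replicate 1, the library against its label, the difference was 0.36 for Isl1, −0.92 for Tac1, −0.54 for Ppp1r1b, −0.69 for Six3 and 0.051 for Rgs9, and −1.002 for Pdyn, −1.09 for Adora2a, −0.92 for Penk and −0.41 for Drd2. With each of the libraries left out in turn Isl1 ran from −0.062 to 1.94. The standard error exceeded the difference itself in 6 of the 9 genes. Averaging each littermate pair leaves the differences unchanged by design, and only the standard errors can change. The standard errors were then 0.91 for Pdyn, 0.63 for Adora2a, 0.64 for Penk, 0.88 for Drd2 and 0.76 for Six3. They were 0.79 for Ppp1r1b, 1.40 for Tac1, 0.28 for Rgs9 and 1.35 for Isl1.

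The Dp(16)1Yey/+ libraries were set beside each littermate pair. All 4 were below both high littermates for 6 of the 9 genes, against 8.5% of the 36045 loci, and all 4 were above both low littermates for 3 of the 9 (Tac1, Drd2 and Isl1), against 8.8%. For Pdyn 1 of the 4 was above both low littermates, and for Adora2a and Rgs9 2 were. Tac1 averaged 36.8 ± 46.9 (SD, n = 4) in Dp(16)1Yey/+, against a littermate pair mean of 2.49 and one of 215. Pdyn averaged 11.5 ± 8.15 against pair means of 6.47 and 90.8, and Adora2a 25.8 ± 13.6 against 22.1 and 104. The median log2 difference of the 9 genes was −0.32, with 8 below 0, against 0.03 over all loci, of which 45.1% were below 0. It was −0.69 without Dp(16)1Yey/+ replicate 1. Averaging each littermate pair cannot change it, since the pairs are of equal size. The median ranged from −1.04 to 0.10 with 1 library left out. The negative end was reached without littermate replicate 0 and the positive end without Dp(16)1Yey/+ replicate 2, and without littermate replicates 2 and 3 in turn the median was −0.048 and 0.028. From group means on the linear scale, edgeR and DESeq2 both gave −1.34. Pdyn, Penk and Adora2a stayed below 0 in each of these runs (−2.07 to −0.42, −1.45 to −0.40 and −1.46 to −0.59), and Tac1 ran from −1.41 to 0.88. In bulk tissue, fewer cells of a type and less RNA per cell cannot be told apart.

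**Figure D2:**
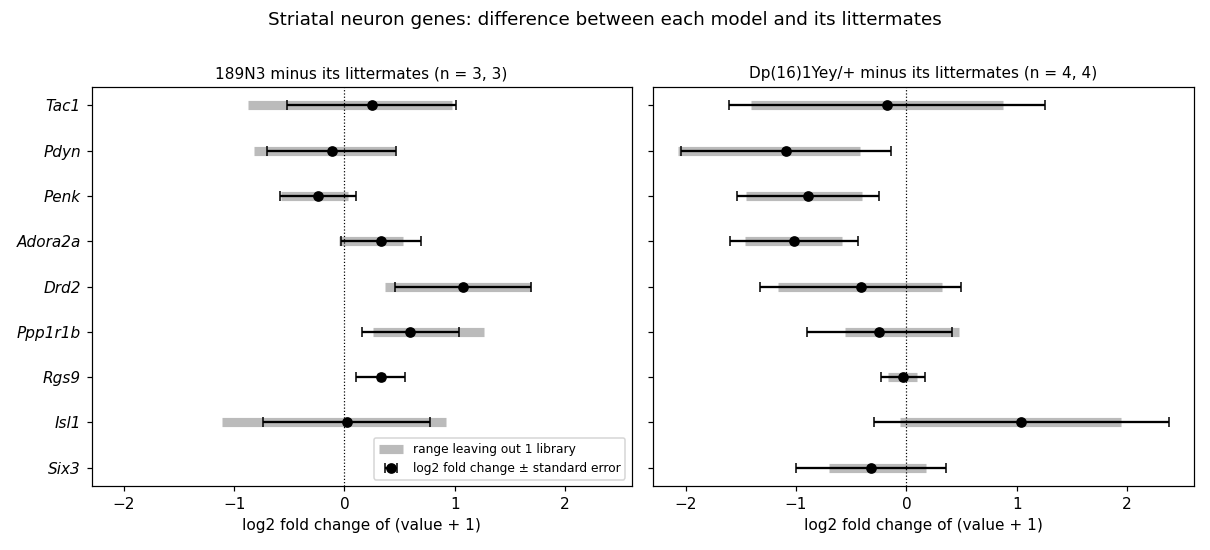
Log2 fold change of (value + 1) for each gene between each model and its littermates, as points with standard errors, and the range when 1 library is left out as grey bars. The bars cross 0 for 5 of the 8 genes tested in 189N3, and Six3 has no value there.

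Genes that work with the 9 were described from lists. Of 20 other striatal projection neuron genes (the dopamine receptor gene Drd1, Foxp1 and others), 17 passed the filter on low values in each comparison. None was called by limma in either. Their median log2 fold change was 0.26 in 189N3, with 13 above and 4 below 0, and −0.34 in Dp(16)1Yey/+, with 4 above and 13 below. Replicate 2 stood apart in 189N3, and without it the median of the same 17 genes was −0.027, with 8 above and 9 below 0. In Dp(16)1Yey/+ the median was −0.21 without littermate replicate 2 and −0.16 without littermate replicate 3, each with 8 above and 9 below 0. All 17 were higher in littermate replicates 2 and 3 than in replicates 0 and 1, and 7 had those replicates as the 2 highest of the 14 libraries. Drd1, the receptor of direct-pathway neurons, averaged 260.2 ± 69.0 (SD, n = 3) in 189N3 and 130.2 ± 42.4 in littermates. Its groups did not overlap, and the log2 fold change was 1.02 (standard error 0.30, limma adjusted p = 1.00). Foxp1, a forkhead factor of striatal neurons, averaged 2296 ± 415 against 1786 ± 217, also without overlap (log2 fold change 0.36, limma adjusted p = 1.00). At an unadjusted p under 0.05 limma gave 1 of the 17 in 189N3, against 1.87% of all loci, and 2 in Dp(16)1Yey/+, against 3.53%. Gpr6, Scn4b and Sh3rf2 were under a mean of 10 in both lines and were not tested. Of these, Sh3rf2 averaged 2.34 in 189N3 and 5.83 in littermates and Scn4b 4.20 in Dp(16)1Yey/+ and 8.93 in littermates, each without overlap.

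Of 11 genes for peptide receptors and peptide processing, 10 were tested in 189N3 and 9 in Dp(16)1Yey/+, and limma called 0. The median log2 fold change was 0.19 in 189N3 and −0.53 in Dp(16)1Yey/+, where 8 of 9 were below 0. Without 189N3 replicate 2 the median in that line was 0.0062, with 5 above and 5 below 0. At an unadjusted p under 0.05 limma gave 0 of the 10 in 189N3, against 1.87% of all loci, and 2 of the 9 in Dp(16)1Yey/+, against 3.53%. The opioid receptor genes Oprd1 and, in the Dp(16)1Yey/+ line, Oprk1 were under a mean of 10. Of 17 genes for dopamine, adenosine and cAMP signalling, some of them also in the list of striatal genes, 13 were tested in each comparison. Their median was 0.31 in 189N3, with 12 above 0, and −0.20 in Dp(16)1Yey/+, with 11 below 0. Without 189N3 replicate 2 the former was 0.033, with 8 above and 5 below 0. The latter was −0.081 without littermate replicate 2 and −0.099 without littermate replicate 3, each with 3 above and 10 below 0. Drd3, Drd5, Th and Slc6a3 were under a mean of 10 in both lines, and each was at 0 in at least 1 library. Th and Slc6a3 mark dopaminergic neurons themselves.

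Subpallial and neocortical markers were mostly higher in littermate replicates 2 and 3 of Dp(16)1Yey/+, and their part in the values above was not tested. The split was not particular to them. Of the dopamine, adenosine and cAMP signalling genes 12 of 13 were higher in that pair, and 4 of 5 erythroid genes, against 34.1% of all loci. In 189N3 replicate 0 the mean standardised log2 level was 0.64 for the neocortical genes and −0.40 for the 9 genes. Subpallial genes, such as Dlx and Gad genes, had 10 of 12 with a mean over all libraries of 10 or more. All 10 were higher in littermate replicates 2 and 3 of Dp(16)1Yey/+ than in replicates 0 and 1. The summed level of all 12 was 2952 to 4959 normalized fragments in 189N3 and 2953 to 4264 in its littermates. It was 2736 to 4452 in Dp(16)1Yey/+ and 2534 to 5034 in the littermates of the latter. Of 6 neocortical genes, 5 were higher in the same littermate pair, and their sum was 6200.2 to 11627, 5961 to 7308, 4925 to 12748 and 5464 to 9191 in the same order of groups. Of 8 genes of hippocampus and pallium, 2 were higher and 4 lower in that pair, and their sum was 21692 to 27887, 20239 to 25166, 21080 to 25301 and 17396 to 21756. Neurod6 alone gave 8965 to 20161 of these sums. The median log2 fold change of the 8 genes was −0.21 in Dp(16)1Yey/+, with 3 above and 5 below 0, and 0.0064 in 189N3, with 4 above and 4 below. Neurod6, a factor of pallial excitatory neurons, was the 1 gene of the list whose groups did not overlap. It averaged 15085 ± 3840 (SD, n = 4) in Dp(16)1Yey/+ and 9772 ± 929 in littermates (log2 fold change 0.60, limma adjusted p = 0.909). Its highest value, 20161, was in Dp(16)1Yey/+ replicate 1, the library against its label. Replicates 0, 2 and 3 read 13868, 10971 and 15340, and the highest littermate read 10816, close to the lowest of these.

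Zbtb20 was singled out after its values were seen. It read 7734 and 7398 normalized fragments in littermate replicates 0 and 1 of Dp(16)1Yey/+, and 2254 and 2546 in replicates 2 and 3. The Dp(16)1Yey/+ libraries had 3442, 1789, 6896 and 2228. In 189N3 it read 3277, 6979 and 3589, and in the littermates 5882, 3707 and 3596. In each of the 5 libraries with the most Zbtb20 the mean standardised level of the 9 genes was −0.35 or lower, as it also was in 189N3 replicate 0 (−0.40). Pearson's r of Zbtb20 with that level was −0.71, the lowest in the list of hippocampus and pallium. The other genes of that list had r of −0.56, −0.51, −0.24, 0.043, 0.14, 0.18 and 0.54, so Zbtb20 does not stand for the list.

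**Figure D3:**
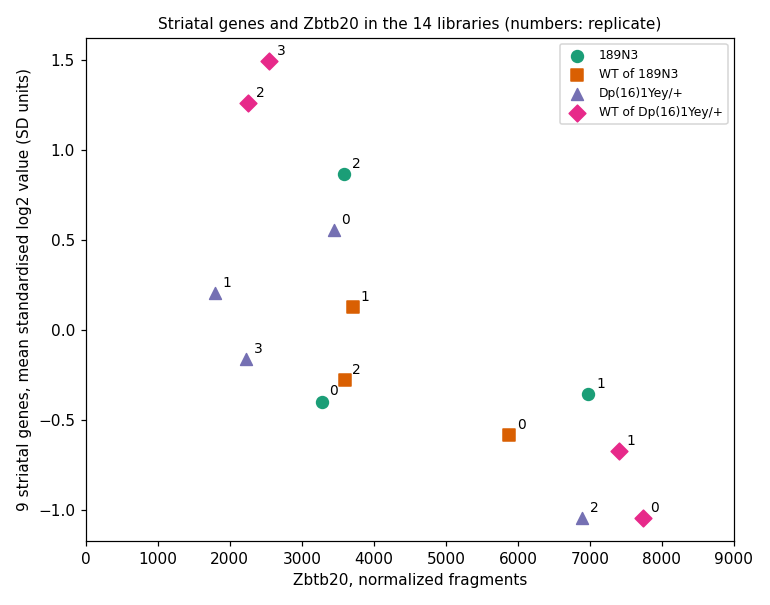
Mean standardised log2 level of the 9 genes (SD units) against Zbtb20 in normalized fragments, with 1 point per library, the marker giving the group and the number the replicate. Littermate replicates 2 and 3 of Dp(16)1Yey/+ sit at the top left, at 2254 and 2546 normalized fragments of Zbtb20, and replicates 0 and 1 at the bottom right, at 7734 and 7398.

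Lists of more distant tissues were described in the same way. Of 6 basal forebrain cholinergic genes 2 had a mean of at least 10. The summed level of all 6 was 16.1 to 55.0 normalized fragments in 189N3 and 29.0 to 108 in its littermates. It was 24.7 to 82.1 in Dp(16)1Yey/+ and 30.9 to 118 in the littermates of the latter. Chat, which makes acetylcholine, was at 0 in 8 of 14 libraries. Lhx8, a factor of basal forebrain neurons singled out after its values were seen, read 1.03 and 0 in the low littermate pair of Dp(16)1Yey/+ and 52.9 and 59.7 in the high pair, and 47.8 in littermate replicate 1 of 189N3. Of 6 named genes of hypothalamus and thalamus 4 had a mean of at least 10. The summed level of all 6 was 480 to 790, 549 to 866, 408 to 1548 and 824 to 1163 in the same order. Most of it came from 1 gene, which read 328 to 1451. Gbx2 was at 0 in 5 libraries. Sim1, a factor of hypothalamic neurons singled out in the same way, read 0 and 0 in the low littermate pair and 75.6 and 92.0 in the high pair, 52.9 in 189N3 replicate 2, 77.6 in littermate replicate 1 of 189N3 and 10.9 or less in the other 8 libraries. Over the 14 libraries Pearson's r with the mean standardised level of the 9 striatal genes was 0.82 for Sim1 and 0.76 for Lhx8, as a description. The other genes of these lists with a mean of at least 10 had r of 0.44, 0.30, −0.03 and −0.33. The part of such cells in the values of the 9 genes was not tested. In 189N3 the thalamic factor Tcf7l2 averaged 85.3 ± 14.5 (SD, n = 3) against 136 ± 13.5, without overlap (log2 fold change −0.67, limma adjusted p = 1.00). All 6 choroid plexus genes were measured (519 to 6270, 630 to 14690, 294 to 2683 and 474 to 2099), and so were 5 named erythroid genes (13827 to 22061, 33639 to 54137, 6091 to 48051 and 4543 to 17031). The median log2 fold change of the erythroid genes was −1.29 in 189N3, where Hbb-bs, Hbb-bt and Alas2 did not overlap, and 1.20 in Dp(16)1Yey/+. The serotonin receptor gene Htr2c, of the choroid plexus list, averaged 106 ± 50.4 (SD, n = 4) in Dp(16)1Yey/+ and 218 ± 65.3 in littermates, without overlap (log2 fold change −1.13, limma adjusted p = 0.909). None of these genes was called by limma, although all 5 erythroid genes had an unadjusted p under 0.05 in 189N3, against 1.87% of all loci.

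**Figure D4:**
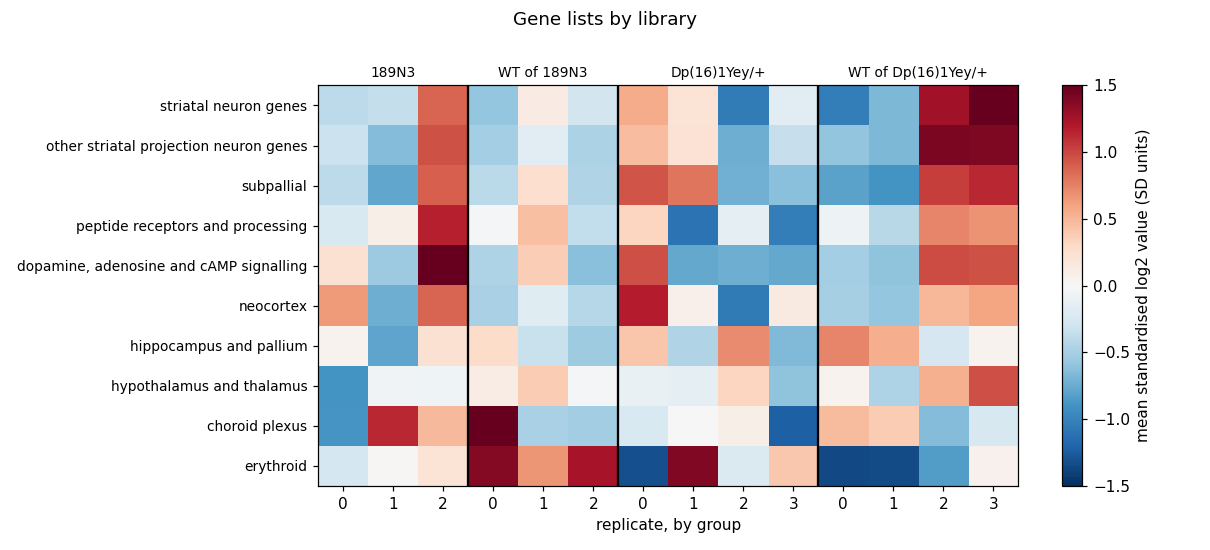
Mean standardised log2 value (SD units, red high and blue low) of each gene list in each of the 14 libraries, by group. The rows of the 9 striatal genes, the other striatal genes and the subpallial genes are alike across libraries, whereas the erythroid row is highest in littermates of 189N3 and in Dp(16)1Yey/+ replicate 1.

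Genes outside the list were ranked by the likeness of their pattern, as Pearson's r of log2(value + 1) with the mean standardised level of the 9 genes, over 14 libraries and 14691 named genes. The libraries, with their nearly alike pairs, are shared by all of these genes, so the values are descriptions. Among the 8 most alike were Scml4 (r = 0.97), Dclk3 (0.95), Pde7b (0.95), Tigd3 (0.94), Ngef (0.94), Pcdh10 (0.94) and Cry1 (0.94). Dclk3, a kinase gene, read 11.3 and 15.8 normalized fragments in the low littermate pair and 223 and 216 in the high pair. After the group means were subtracted, the 8 most alike included Pcdh10 (r = 0.98), Scml4 (0.97), Raph1 (0.97), D430036J16Rik (0.97), Cntnap3 (0.97), Nipal2 (0.96) and Rapgef5 (0.96). Scml4 and Pcdh10 were in both sets.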

How the data were processed

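RNA was extracted from dissected hippocampi, and paired-end libraries were made with a stranded total RNA kit, while the labels list polyA RNA. Per the labels and the methods, the authors aligned reads to mm10 with Bowtie and TopHat and assembled loci with Cufflinks, and versions are not given in the sources used here. The deposited table holds 1 signal value per locus: fragments divided by 1 size factor per library. Whole fragments were recovered for 100% of values (tolerance 0.02), at 0.816 to 1.21 units per fragment. The deposited isoform table holds estimated counts (expected fragments) per transcript. The deposited map names transcripts. Loci were named by matching isoform sums (48795 of 59796 loci, 17415 with a symbol), since transcript numbers shift by up to 11.

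Values were tested as log2(value + 1) with limma 3.58.1 (R 4.3.3), with a variance trend, on loci with a mean of at least 10 in the libraries compared and Benjamini-Hochberg adjustment over all of them. Fold changes on this scale understate those of low genes. Alternatives were other pseudocounts (0.1, 10), filters, scalings, edgeR 4.0.16 and DESeq2 1.42.0 on recovered fragments, a replicate block, each library left out, 1 fit of all groups, no trend and averaged pairs. Scripts were checked on simulated data. Genes of the other lists are named only where their groups did not overlap, or where they were under a mean of 10 or at 0. Zbtb20, Prox1, Lhx8 and Sim1 are exceptions, chosen after their values were seen. The members and lists were chosen with earlier results of these data known. Some genes of the lists and of the rankings by likeness are not reported here.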

Additional observations from a re-analysis of the deposited data

Results flagged for a closer look

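Each gene was checked for a library far from the rest in both groups of 4 libraries, 18 groups in all, and 2 stood out. The nominal rate of the rule, about 1 in 20 groups, is no measure of chance here. The genes share the same libraries and were chosen with these values known, so the flags are descriptions. Tac1 read 107 normalized fragments in Dp(16)1Yey/+ replicate 1, and the next highest library of that group read 16.1. Pdyn read 23.7 in Dp(16)1Yey/+ replicate 0, and the next highest read 8.23. The gap to the nearest library was 0.92 of the range of the group for Tac1 and 0.93 for Pdyn. Replicate 1 is also the library whose duplicated-region genes were near the littermate level, and the part of this in the value of Tac1 was not tested. No library of the littermates of Dp(16)1Yey/+ stood out in this way. However, the rule measures the gap to the nearest library, so a library with a close partner could not be flagged. In 8 of the 9 genes these littermates split into a high and a low pair.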

How the results depend on the processing

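In 189N3, limma called 0 of 35899 loci. Size factors by median ratio gave 3 calls, TMM 2, DESeq2 15 and the replicate block 72, and leaving out each library gave 0 to 28, with 28 without littermate replicate 1 and 2 without littermate replicate 0. In Dp(16)1Yey/+ DESeq2 gave 8 calls against 0, and leaving out each library gave 0 to 3, with 3 without replicate 1. The causes were not tested. No alternative called any of the 9 genes. The replicate numbers did not pair the libraries (correlations of same-numbered deviations from group means −0.32 to −0.03 in 189N3 and −0.45 to −0.07 in Dp(16)1Yey/+), so the block is given here alone.

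In 189N3 the log2 fold change of Pdyn was 0.050 by DESeq2 against −0.12. With 1 library left out, Tac1 ran from −0.87 to 0.97, Pdyn from −0.82 to 0.46, Penk from −0.58 to 0.030, Adora2a from −0.053 to 0.53 and Isl1 from −1.11 to 0.92, and the median of the genes tested from −0.58 to 0.47. The −0.58 is over 7 genes, since Drd2 then averaged under 10, and the median of the same 8 genes, an alternative chosen after seeing the data, ran from −0.32 to 0.47. The lowest values of these 5 genes came without 189N3 replicate 2. Over the other alternatives that left no library out, no member tested in 189N3 changed sign. Few fragments limit Tac1, Pdyn, Drd2 and Six3, whose lowest libraries hold 1 or 2 fragments.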
